A study of Danio rerio with 4 samples.

Results

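The loci described here are places where Flag-tagged Pou5f1 had a listed chromatin immunoprecipitation (ChIP-seq) peak in late blastula zebrafish embryos and neither of the other ChIP lists had one. They were chosen by position. Peak intervals of the 3 ChIP lists that touched an Input interval by 1 bp or more were set aside, overlapping intervals of the 3 lists were merged into loci, and loci holding late blastula Pou5f1-Flag intervals only were kept. This gave 4036 loci found alone, of 16960 loci in all and of 6074 that held a late blastula Pou5f1-Flag interval (66.4%, exact binomial 95% interval 65.2 to 67.6). The remaining 2038 were shared: 1274 with Sox2, 390 with 512-cell Pou5f1-Flag and 374 with both. The presence or absence of an interval in each list is what chose the loci, so these counts are a description and carry no test. The number depends on what counts as a peak: it was 2285 at a false discovery rate of 1% or less and 1573 at 40 reads or more. The 2285 are not all among the 4036, of which 2004 had a strongest interval at 1% or less.

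The late blastula Pou5f1-Flag sample came from MZspg embryos, which lack maternal and zygotic Pou5f1 function and had received mRNA for the tagged protein in an amount set to restore the wild-type course. The 512-cell Pou5f1-Flag sample came from MZspg embryos injected with the same kind of mRNA. The Sox2 sample and the Input came from wild-type embryos at late blastula. Anti-FLAG M2 was used for the tagged protein and anti-Sox2 for Sox2. Each ChIP or Input sample was 1 pool of nuclei, 2000000 at the 512-cell stage and 20000000 for the others, and each group held 1 sample. The tagged protein was made from injected mRNA in every embryo of both Pou5f1-Flag samples, and no Input of injected embryos was analysed here, so genotype, injection and antibody cannot be told apart between the Pou5f1-Flag and Sox2 lists. Stage and number of nuclei cannot be told apart between the Pou5f1-Flag lists. With 1 sample a group no difference below was tested, and all intervals given cover counting error over loci or genes only.

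Pou5f1, now named pou5f3 in zebrafish, is a POU-domain transcription factor related to mammalian Oct4 and is supplied to the egg by the mother. Its POU domain binds octamer-like DNA, often beside a site for a SoxB1 factor such as Sox2. Together with SoxB1 factors and Nanog it takes part in switching on the zygotic genome, and it later acts in dorsoventral patterning, endoderm formation and gastrulation movements.

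The 20 strongest loci found alone that held no interval of 500 to 510 bp had 232 to 826 reads. Here strength is the authors' read count in the strongest late blastula Pou5f1-Flag interval of a locus. Positions are Zv9, counted from 1, and a locus is called after the pair of genes that the authors list on its sides. Distances to those genes, and whether a locus falls in an exon, an intron or between genes, were not analysed here. Since no other ChIP list has an interval at these loci, each has a read count in 1 list only. The first had 826 reads over 3367 bp (chromosome 14, 53307690 to 53311056) between slc49a3 and atp6v0e1, a proton pump subunit gene. The second had 752 reads over 709 bp (chromosome 14, 1638736 to 1639444) between hrh2a, a histamine receptor gene, and the protocadherin gene pcdh2g29. Next came 598 reads over 2262 bp (chromosome 19, 465913 to 468174) at dus3l and cyp51, which encodes a sterol synthesis enzyme. The nearest Sox2 interval was 231318, 1106029 and 113498 bp away from these 3 loci in turn, and the nearest 512-cell Pou5f1-Flag interval 191475, 205674 and 31415 bp away. The authors' Wilcoxon filter p-values of these 3 loci were 0.0494, 3.08e-06 and 0.0308 in turn. The highest in the list was 0.0500, so a high read count did not always go with a low filter p-value.

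A locus of 428 reads lay beside lsamp, an IgLON adhesion gene (chromosome 15, 46270970 to 46272166). One of 319 reads lay beside epha4b, an Eph receptor gene (chromosome 2, 40558593 to 40559987). A locus of 308 reads lay beside lims2, a focal adhesion gene (chromosome 9, 455339 to 456790), and had 226 forward and 82 reverse reads, the most uneven strands of these 20. Further down were dag1, which encodes dystroglycan (264 reads, chromosome 22, 35612025 to 35612743), and oclna, a tight junction occludin gene (263 reads, chromosome 10, 3044573 to 3045415).

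A pair of the 20 lay at transcription regulators, irx3b, an Iroquois homeobox gene, and skor1b, a corepressor gene. The irx3b locus had 287 reads (chromosome 25, 37566483 to 37567441) and was close to other lists, 6385 bp from a Sox2 and 1659 bp from a 512-cell interval. The skor1b locus had 258 reads (chromosome 18, 19683215 to 19684409) and lay 141757 bp from Sox2 and 254187 bp from 512-cell intervals. Further members of the 20 were loci at tbc1d7 (418 reads), gpr176 and katnbl1 (383), ddx39ab and pkn1b (306), stk24a and prkra (306), NM_200311 and gemin2 (267), abcc2 and cox15 (259), p2ry10 and nup62l (243), ccn4b and ptpn6 (240), and fsip1 and spra (232). The list names fsip1 on chromosomes 5 and 17 and spra on chromosomes 5 and 12, so those names are uncertain. All 20 were at least 600 bp long, 18 lay more than 10000 bp from any Sox2 or 512-cell interval, and 0 lay within 5 kb of an Input interval.

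Loci with an interval of 500 to 510 bp are given apart, as possible stacks of reads. They were 98 of the 4036 (2.43%, 1.98 to 2.95), and 36 of the 2038 shared loci (1.77%, 1.24 to 2.44). Among the 10 strongest loci found alone, 7 were of this kind. The foremost were at dusp14 and hnf1ba, a homeobox gene of hindbrain and kidney (1016 reads over 509 bp, chromosome 15, 15013047 to 15013555), at trim23 and lpar1, a lysophosphatidic acid receptor gene (964 reads over 508 bp, chromosome 10, 11920160 to 11920667), and at mstnb, which encodes myostatin, and pms1 (776 reads over 507 bp, chromosome 9, 42026499 to 42027005). Their reads were even between strands, 503 forward and 513 reverse at dusp14, 467 and 497 at trim23, and 365 and 411 at mstnb. The next 7 had 437 to 689 reads and were 504 to 507 bp long. They lay at the thrombospondin gene thbs4a, the dynein gene dnal4b, the RNA polymerase II subunit gene polr2b, arb2a, antkmt, the neuronal RNA-binding gene elavl4, and paxbp1. The nearest Sox2 or 512-cell interval was 4064 bp away at dusp14, 2768 bp at trim23 and 173979 bp at mstnb.

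**Figure D1:**
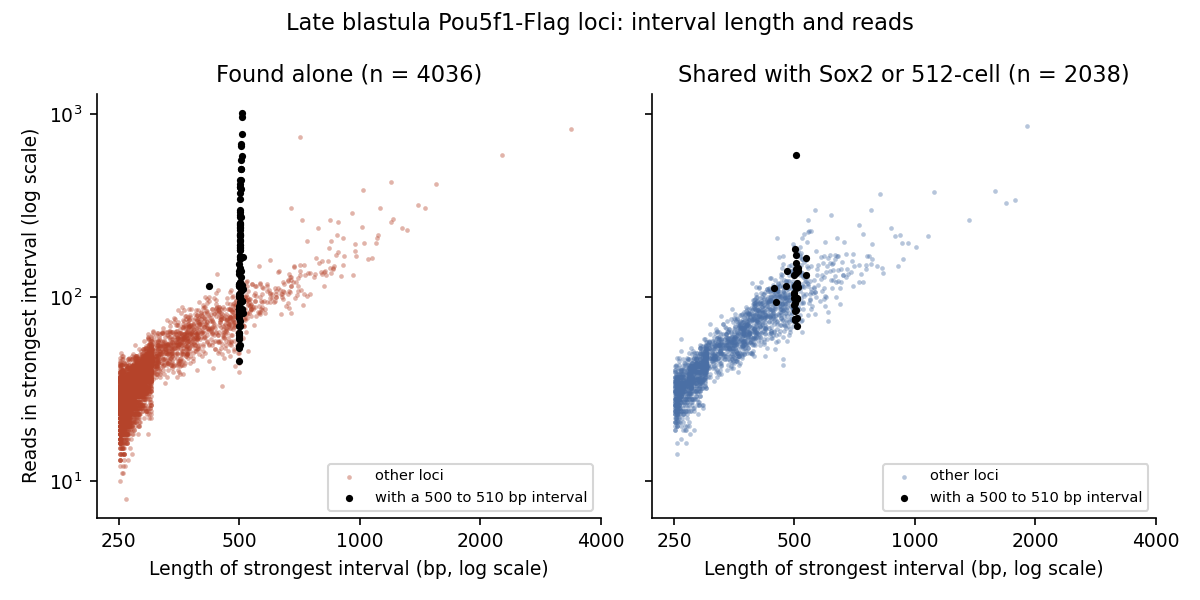
Reads (vertical axis, log scale) against length in bp (horizontal axis, log scale) of the strongest late blastula Pou5f1-Flag interval, 1 point per locus, for 4036 loci found alone (left) and 2038 shared loci (right), with loci holding a 500 to 510 bp interval in black. On the left most black points form a column whose lower part, from 45 reads, lies within the band of other loci and whose upper part stands above it, up to 1016 reads, and on the right all but 1 stay below 200 reads. A black point lies beside the column where the strongest interval is not the one of 500 to 510 bp, as at 419 bp and 115 reads on the left.

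At 200 reads or more, a bound set after seeing the data, 34 of 60 loci found alone (56.7%) held such an interval, against 1 of 28 shared loci. Loci found alone held 100 intervals of this length. The 30 of exactly 500 bp had a median of 86.5 reads, the 21 of 501 bp 182 reads, the 13 of 502 bp 233 reads, the 8 of 503 bp 385.5 reads and the 8 of 504 bp 265 reads. The 20 longer ones held both the strongest of all, up to 1016 reads, and many weak ones, down to 82 reads. Spearman's rho of length and reads was 0.49 over all 100 and 0.87 over the 34 with 200 reads or more, against 0.81 over 4076 intervals of other lengths in loci found alone, a description of intervals from 1 library. Intervals of this length were also listed elsewhere, 193 (2.71%) in the whole late blastula Pou5f1-Flag list, 84 (1.08%) at 512 cells, 103 (1.68%) for Sox2 and 50 (2.63%) in the Input. The strongest of them had 1016, 566, 414 and 162 reads in these 4 lists in turn, counts that are not comparable between lists. Of the 193, 100 were in loci found alone and 36 in shared loci. The rest were among the intervals set aside for touching the Input, which were 460 of 7130 at all lengths. Among the 98 loci, 75 (76.5%, 66.9 to 84.5) lay more than 10 kb from any Sox2 or 512-cell interval, against 2738 (69.5%, 68.1 to 71.0) of the 3938 other loci found alone. Whether these intervals are read stacks was not tested.

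Loci found alone had fewer reads than shared ones. Without the 500 to 510 bp intervals, their median was 35 reads (quartiles 27.25 and 47, n = 3938), against 50 reads (36 and 76, n = 2002) in shared loci. With every length kept, the median was again 35 reads for loci found alone, against 48 with Sox2 only, 44 with 512-cell Pou5f1-Flag only and 69.5 in all 3 lists. The ranges overlapped widely, 8 to 1016 reads in loci found alone and 14 to 856 in shared ones. Reads enter the calling of peaks in every list, so this order is not independent of the choice of loci.

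**Figure D2:**
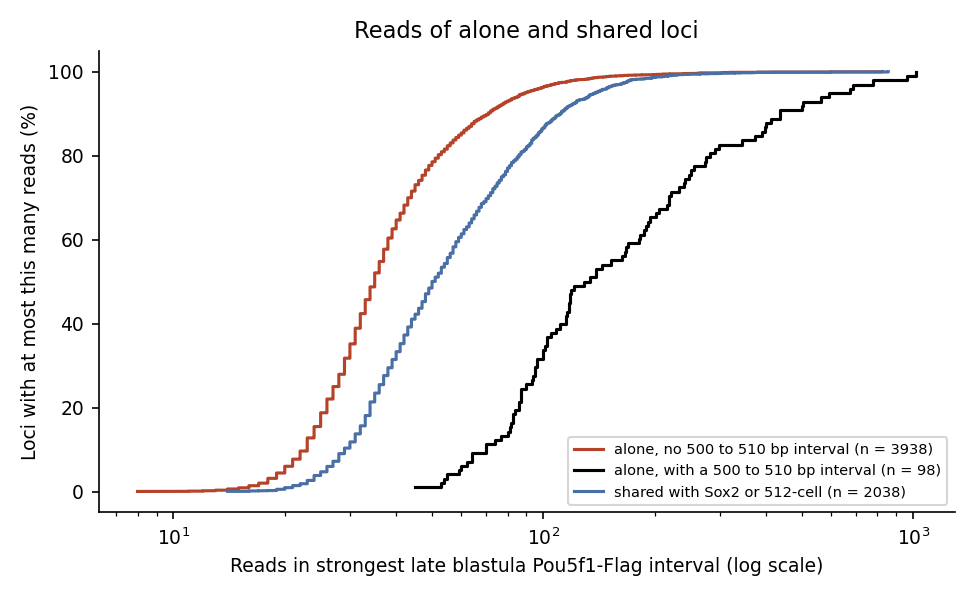
Percentage of loci (vertical axis) with at most a given number of reads in the strongest late blastula Pou5f1-Flag interval (horizontal axis, log scale), for loci found alone without and with a 500 to 510 bp interval and for shared loci. The curve of the 3938 other loci found alone lies left of that of the shared loci, with medians of 35 and 50 reads, and the curve of the 98 lies to the right of both, with a median of 131.5.

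The share of late blastula loci found alone was 89.8% (87.1 to 92.1) in the weakest of 10 bins by reads, with 8 to 24 reads. It was 42.2% (38.2 to 46.2) in the strongest, with 92 to 1016 reads. In that last bin it was 72.3% (62.5 to 80.7) of 101 loci with a 500 to 510 bp interval and 36.2% (32.0 to 40.5) of 506 others. So 183 loci in the strongest bin that held no 500 to 510 bp interval had no counterpart in either list.

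**Figure D3:**
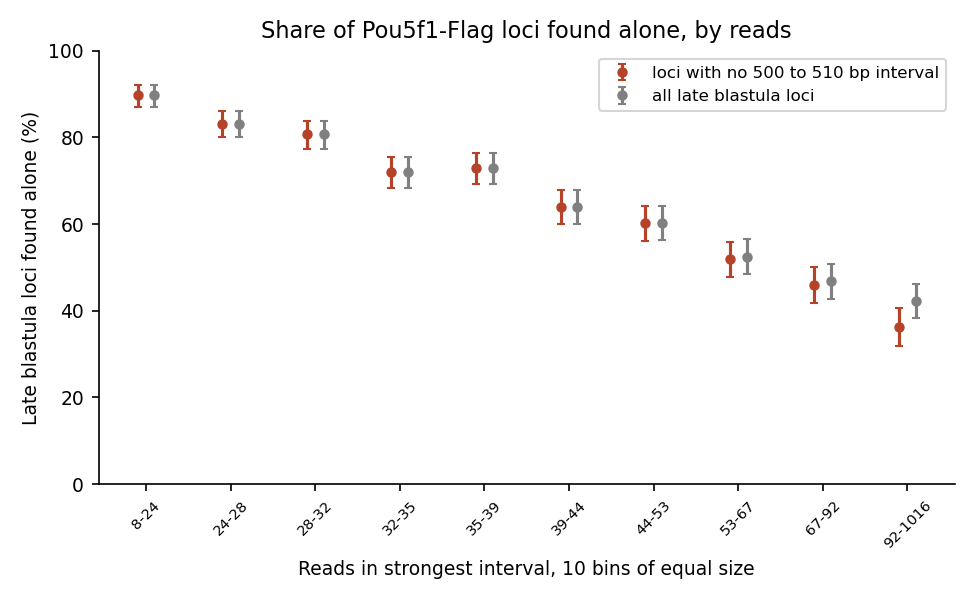
Percentage of late blastula Pou5f1-Flag loci found alone (vertical axis) in 10 bins of equal size by reads (horizontal axis, reads per bin), with exact binomial 95% intervals, for loci with no 500 to 510 bp interval and for all loci. The share is 89.8% in the weakest bin, and in the strongest 36.2% without and 42.2% with the 500 to 510 bp loci.

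In medians, or in the share at a false discovery rate of 1% or less, the authors' other measures ordered the classes the same way. These measures were not compared at matched reads. Length followed reads, with a Spearman's rho of 0.81 over intervals of lengths other than 500 to 510 bp in loci found alone. The strongest interval had a median length of 276 bp (quartiles 259 and 302) in loci found alone without the 500 to 510 bp group, against 320 bp (275 and 410) in shared loci without it. A false discovery rate of 1% or less was listed for 1908 (48.5%, 46.9 to 50.0) of these loci found alone, against 1444 (72.1%, 70.1 to 74.1) of the shared ones. The authors' median Wilcoxon filter p-value was 0.00495 in loci found alone and 0.000508 in shared loci. The strands were slightly less even in loci found alone, where the normalized strand difference had a median of 0.143, against 0.111 in shared loci. In bins of interval length the order was not uniform. The share of intervals in loci found alone fell from 77.3% (75.1 to 79.4) in the shortest bin to 35.1% (31.7 to 38.5) in the last below 500 bp. Above 510 bp it rose from bin to bin, 43.9%, 57.5% and, over 1000 bp, 71.4% (51.3 to 86.8). That last bin held 20 intervals in loci found alone and 8 in shared loci.

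The late blastula Pou5f1-Flag list goes through the chromosomes 2 times, and a locus can therefore be listed in both passes. This held for 140 loci found alone (3.47%, 2.93 to 4.08), against 429 shared loci (21.1%, 19.3 to 22.9) and 136 of the 374 in all 3 lists (36.4%, 31.5 to 41.5). Another 316 loci found alone were in the first pass only and 3580 in the second only. No locus found alone held more than these 2 intervals. In the 140, the second pass gave more reads in 118, the first in 19, and 3 were equal. The median was 55 reads in the second pass and 34.5 in the first. The strongest of them were at gpr176 and katnbl1 (383 reads in the second pass and 43 in the first), p2ry10 and nup62l (243 and 32), followed at 165 reads each by myh9a, a non-muscle myosin gene (165 and 50, chromosome 6, 7780069 to 7780844), and by zdhhc21 and nadsyn1 (165 and 142, chromosome 7, 66157725 to 66159341), where the passes were closer to each other. The sources used here do not say what the passes are.

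Some loci were close to counting as shared. Just inside the rule, the loci nearest to Sox2 were 4 bp away between dtx2 and lig3 (28 reads), 5 bp away at dhrs3b (118 reads) and 5 bp away at zgc:112234 (37 reads). The nearest to 512-cell Pou5f1-Flag were 6 bp away at zgc:172136 (61 reads), 7 bp away at thbs3b and mtx1b (71 reads) and 9 bp away at zgc:163061 (30 reads). Just outside it, shared loci touched Sox2 by 6 bp at zgc:113279 and arcn1b (34 reads, with 82 Sox2 reads), by 8 bp at robo3 (33 and 66 reads) and by 15 bp at foxn2b (31 and 125 reads). They touched 512-cell intervals by 1 bp at chrac1 and gatad2b (34 and 59 reads), 5 bp at lancl2 and napga (29 and 45 reads) and 12 bp at sdc4, a syndecan gene (33 and 88 reads). Such loci were few: 56 (1.39%) had a Sox2 or 512-cell interval within 100 bp and 348 (8.62%) within 1000 bp. They were still a larger share than in the other classes found alone. Within 100 bp of a Sox2 interval lay 0.644% of late blastula Pou5f1-Flag loci found alone, against 0.136% of 512-cell ones. Within 100 bp of a 512-cell interval lay 0.793%, against 0.147% of Sox2 loci found alone. Within 1000 bp the shares were 3.89% against 1.48%, and 5.5% against 2.37%. Within 50000 bp they were 36.8% against 31.3%, and 48.3% against 49.4%. A further 6 loci found alone overlapped a Sox2 interval that had itself been set aside for touching the Input. At the other end, 1464 (36.3%, 34.8 to 37.8) had no Sox2 or 512-cell interval within 50000 bp. Another locus found alone lay within 1000 bp of 529 (13.1%, 12.1 to 14.2). Another shared locus lay as near to 94 shared loci (4.61%, 3.74 to 5.62), in classes of unequal size. This contrast was gone within 10000 bp, with 1065 (26.4%) of loci found alone and 547 (26.8%) of shared loci. The median distance to the nearest locus of the same class was 69636.5 bp for loci found alone and 73816 bp for shared loci.

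A larger share of loci found alone than of the other classes lay near Input intervals, although by the rule none of any class touched one. Within 1 kb of an Input interval were 100 of them (2.48%, 2.02 to 3.01), against 13 shared loci (0.638%, 0.340 to 1.09), 40 of 4089 Sox2 loci found alone (0.978%, 0.700 to 1.33) and 17 of 6620 512-cell Pou5f1-Flag loci found alone (0.257%, 0.150 to 0.411). Of the 100, 23 lay beside pbx3b and hpdb on chromosome 8 and 6 beside fnta on chromosome 4. Without these stretches the shares were 1.81% (1.41 to 2.27) of the loci found alone, 0.346% (0.139 to 0.712) of shared loci, 0.764% of Sox2 loci and 0.257% of 512-cell loci. What part Input signal has in the loci found alone was not tested.

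**Figure D4:**
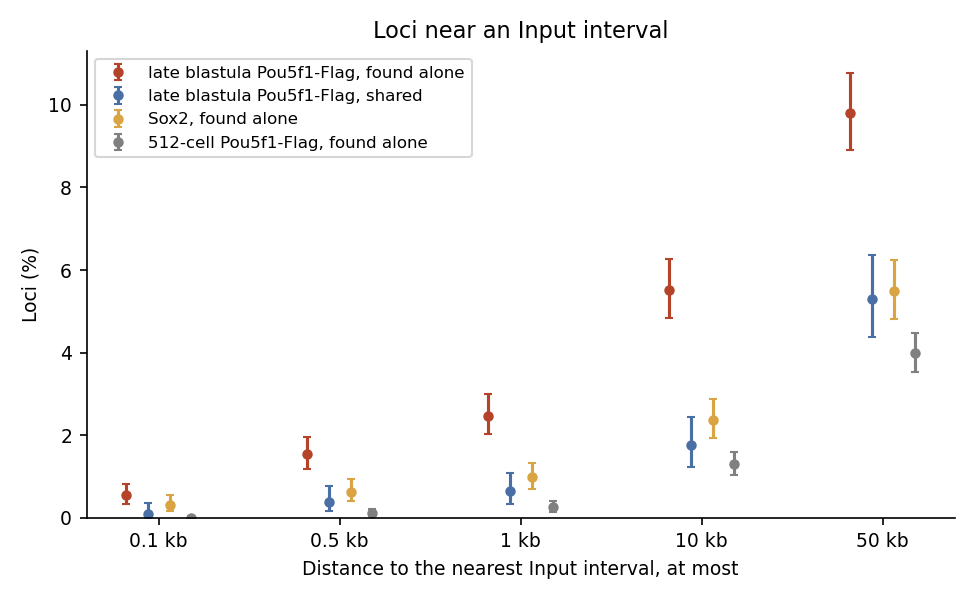
Percentage of loci (vertical axis) with an Input interval within 0.1, 0.5, 1, 10 or 50 kb (horizontal axis), with exact binomial 95% intervals, for late blastula Pou5f1-Flag loci found alone, shared late blastula loci, Sox2 loci found alone and 512-cell Pou5f1-Flag loci found alone. At 1 kb the values are 2.48%, 0.638%, 0.978% and 0.257% in this order, and at 50 kb 9.81%, 5.30%, 5.5% and 3.99%.

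The 10 genes beside the most loci found alone lay on 4 chromosomes. Between fnta, a farnesyltransferase subunit gene, and NM_001114900 on chromosome 4 there were 65 (29711591 to 37821040, median 47 reads), against 7 shared loci and 28 Input intervals. Between met, a receptor tyrosine kinase gene, and zgc:113984 on chromosome 25 there were 55 over 16937 kb (median 37 reads), with 27 shared loci and 57 Input intervals. Between pbx3b, a Hox cofactor gene, and hpdb on chromosome 8 there were 41 in 555 kb (median 41 reads), and 35 of these lay within 10 kb of an Input interval. LOC794656 and zgc:174646, in overlapping stretches of chromosome 4, had 38 each, with a median of 64.5 reads, and 2 and 3 shared loci. Between suz12a, a Polycomb gene, and rab11fip4a on chromosome 3 there were 29 spread over 7641 kb (median 33 reads), with 21 shared loci. Sox2 loci found alone lay beside these genes too. They numbered 44 at suz12a, 48 at met, 23 at fnta, 10 at pbx3b, 7 at LOC794656 and 10 at zgc:174646. The 10 gene pairs with the most loci held 305 of the 4036 (7.56%), and 1597 of 2340 gene pairs held 1 each.

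Every chromosome from 1 to 25 held loci found alone. Their share of late blastula loci was highest on chromosomes 12 (180 of 234, 76.9%), 4 (239 of 314, 76.1%), 10 (178 of 238, 74.8%) and 1 (271 of 364, 74.5%), and lowest on chromosomes 23 (122 of 212, 57.5%, 50.6 to 64.3) and 19 (132 of 227, 58.1%). The binomial intervals of the 4 highest chromosomes overlap each other. On chromosome 4, 157 of the 239 lay at or beyond the start of the fnta stretch.

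Of 9680 genes named in any of the 4 lists, 4158 (43.0%) were named beside a locus found alone, and 42.3% were with the 500 to 510 bp loci left out. Shared late blastula loci named 2506 genes (25.9%). Both kinds were beside 1428 genes, 34.3% of those with a locus found alone and 57.0% of those with a shared one. Most genes, 2561 (61.6%), had 1 locus found alone, and 224 (5.39%) had 5 or more. The length of the stretches beside a gene was not taken into account. The lists below were chosen with earlier results of these data known. In 9 lists of early patterning 118 of 211 genes (55.9%, 48.9 to 62.7) were beside a locus found alone and 145 beside a shared one, and 24 (11.4%) had loci found alone without any shared, against 28.2% of all named genes. In 6 other lists these numbers were 26 of 58 genes (44.8%, 31.7 to 58.5), 21 and 13 (22.4%). Counts per list depend on the weaker loci: 7 of the 15 changed by more than 1.5 times at a false discovery rate of 1% or less and 12 at 40 reads or more. Several loci named below were listed at rates above 1%, among them those beside bmper, pax3a and ckmb at 2.77%, the highest rate of the late blastula Pou5f1-Flag list.

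**Figure D5:**
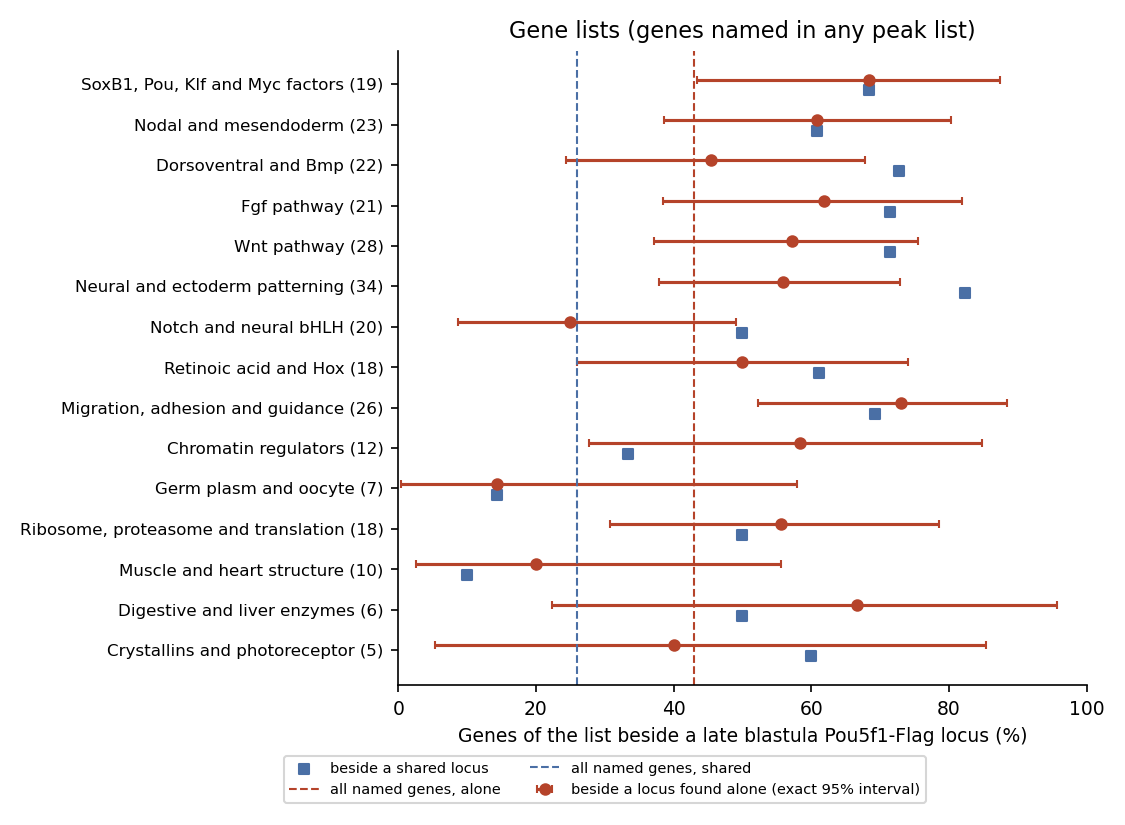
Percentage of genes of 15 lists (horizontal axis) named beside a locus found alone (circles, exact binomial 95% intervals) and beside a shared late blastula locus (squares), with the number of genes named in any list in brackets and dashed lines at 43.0% and 25.9% for all named genes. The interval lies wholly above 43.0% for SoxB1, Pou, Klf and Myc factors (lower bound 43.4%) and for migration, adhesion and guidance genes, and contains it for the other 13 lists, a description and not a test. The list of SoxB1, Pou, Klf and Myc factors also holds foxd3 and nanog, both beside loci found alone. Its interval without them was not computed. The 9680 genes behind both dashed lines include any that only the 512-cell list names, and that list names genes differently at some positions.

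The list of SoxB1, Pou, Klf and Myc factors also holds foxd3 and nanog, which belong to none of these families. Of its 19 genes, 13 (68.4%, 43.4 to 87.4) had a locus found alone, foxd3 and nanog among them, and 13 had a shared one. The strongest lay beside sox2 itself, the gene of the Sox2 factor (137 reads, chromosome 22, 40375689 to 40376500), 13101 bp from the nearest Sox2 interval and stronger than the strongest shared locus there (79 reads). Beside klf17, a Krüppel-like factor gene (63 reads), and sox1a (55 reads), no shared locus was listed. Named after their values were seen, pou5f3 had 1 locus found alone (37 reads) beside 4 shared ones of up to 114 reads, and nanog 1 (32 reads) beside 3 of up to 86 reads.

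Of 23 Nodal and mesendoderm genes, 14 (60.9%, 38.5 to 80.3) had a locus found alone, and 14 had a shared one. The Nodal coreceptor gene tdgf1 had 12 over 534 kb, of which the strongest had 143 reads (chromosome 10, 2504552 to 2505410), beside 3 shared ones. The endoderm factor gene sox17 had 2 (61 reads) beside 1 shared one of 95 reads. The Nodal ligand gene ndr2 had 1 (57 reads, chromosome 12, 49430724 to 49431153) and no shared one. Of 22 dorsoventral and Bmp genes 10 had such a locus (45.5%, 24.4 to 67.8), led by smad7, an inhibitory Smad gene (138 reads, chromosome 21, 3995658 to 3996457), the Bmp modulator gene bmper (60 reads) and tbx2b (57 reads). Shared loci were beside 16 of these 22.

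Fgf pathway genes had a locus found alone in 13 of 21 cases (61.9%, 38.4 to 81.9), and a shared one in 15. The Sprouty gene spry2, a feedback inhibitor of Fgf signalling, had 14 loci found alone, spread over 1288 kb, beside 3 shared ones. The strongest of the 14 had 130 reads (chromosome 1, 2936910 to 2937582), and mir92a-1 is listed on its other side. That gene was beside 13 loci found alone. The related spry4 had 1 of 82 reads and the receptor gene fgfr2 3, the strongest ordinary one with 76 reads. In the Wnt list 16 of 28 genes (57.1%, 37.2 to 75.5) had a locus found alone, with 20 beside a shared one. The Frizzled receptor gene fzd7a led with 125 reads (chromosome 9, 13656074 to 13656735), followed by the ligand gene wnt8a with 85 reads and no shared locus (chromosome 14, 35565076 to 35565427) and by ctnnb1, the beta-catenin gene, with 81 reads against 280 in its strongest shared locus.

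Of 34 ectodermal and neural patterning genes, 19 (55.9%, 37.9 to 72.8) had a locus found alone and 28 (82.4%) a shared one. The strongest were beside foxi1, an otic and epidermal forkhead gene (145 reads, chromosome 16, 2950087 to 2950941), tfap2c, an ectoderm gene with 9 such loci (106 reads, chromosome 6, 56242272 to 56242867), and pax3a, a neural plate border gene with 13 (82 reads). The 13 at pax3a were spread over 1367 kb, and gpc1b is listed on the other side of the strongest. Of 20 Notch and neural bHLH genes 5 had one (25%, 8.66 to 49.1) and 10 a shared one. These were the Delta ligand gene dla with 5 loci (65 reads), the proneural gene atoh1a with 5 (44 reads) and no shared one, and dlc (36 reads), and, named after their values were seen to complete the 5, the Hes-related genes her6 (29 reads) and her8a (28 reads). Of 18 retinoic acid and Hox genes 9 had one (50.0%, 26 to 74), led by the Hox cofactor genes meis1b (138 reads, chromosome 13, 5530529 to 5531153) and pbx3b (136 reads), and by the receptor gene rarab (48 reads). The pbx3b locus lay 129 bp from a Sox2 interval, and 93 Input intervals were listed beside that gene. The rarab locus lay 48 bp from a 512-cell interval, and the meis1b locus 3174 bp from a Sox2 interval.

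Migration, adhesion and guidance genes had the highest share of the 9, 19 of 26 (73.1%, 52.2 to 88.4), with 18 beside a shared locus. The integrin gene itga5 had a locus of 119 reads (chromosome 23, 33762342 to 33762905), listed in both passes with 119 and 52 reads, 451 bp from a Sox2 interval. The apelin receptor gene aplnra, which acts in gastrulation movements, had 1 of 108 reads (chromosome 8, 42314343 to 42314867), and neither gene had a shared locus. The Snail gene snai1b, a repressor of cadherin genes, had 1 of 95 reads against 29 in its strongest shared locus.

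The 6 other lists held 5 to 18 named genes each. Their shares ran from 14.3% to 66.7%, against 25% to 73.1% in the 9 patterning lists. The exact interval of each of the 6 contains the 43.0% of all named genes. Of 12 chromatin regulator genes 7 had a locus found alone (58.3%, 27.7 to 84.8) and 4 a shared one, led by suz12a (168 reads), smarcd3b, a chromatin remodeller subunit gene (94 reads), and the DNA methyltransferase gene dnmt3bb.1 (69 reads). Of 18 ribosome, proteasome and translation genes 10 had one (55.6%, 30.8 to 78.5), against 9 with a shared one. The proteasome gene psmb1 had the strongest, 218 reads (chromosome 13, 1135949 to 1136823), on whose other side olig3 is listed, then rps6 with 211 reads (chromosome 1, 45506038 to 45506947) and eef2b with 97. The psmb1 locus lay 309 bp from a 512-cell interval. Late tissue genes had 2 of 10 for muscle (ckmb, 33 reads, and tnnt2a, 26 reads), 4 of 6 for digestive and liver enzymes (cyp3a65 with 78, cp with 69 and fabp10a with 44 reads), and 2 of 5 for eye genes (grk1a, 51 reads, and pde6a, 17 reads). Of 7 germ plasm genes 1 had one, dnd1, needed by germ cells (47 reads, false discovery rate 1.33%), 574 bp from a 512-cell interval.

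Loci found alone for Sox2 and for 512-cell Pou5f1-Flag gave the nearest classes for comparison. Of the 211 patterning genes, 118 were beside a late blastula Pou5f1-Flag locus found alone, 170 beside a Sox2 locus found alone and 158 beside a 512-cell locus found alone. Over all named genes the shares were 43.0%, 43.3% and 68.0% in the same order. The late blastula Pou5f1-Flag and Sox2 classes held 4036 and 4089 loci. The 512-cell list names genes differently at some positions: its loci found alone are listed beside NM_001114900 in 8 cases and beside fnta in 0, although the late blastula Pou5f1-Flag list gives each of these genes beside 65 loci found alone. The shares over all named genes were not adjusted for this difference in naming.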

How the data were processed

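Each of 4 samples, 1 per group, had 1 peak list. The submitters' processing notes name CASAVA; no source used here names the peak caller. Per the file headers, the authors give for each interval the count of reads and of forward and reverse reads, not normalized, the false discovery rate in percent, the normalized strand difference as a fraction of the reads, and a Wilcoxon filter p-value. No depth of a library was used, so counts are not comparable between lists. Identifiers of 3 lists name Zv9, and the 512-cell list, which names no build, was taken to share it. Deposited starts, counted from 0, were changed to count from 1.

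Of 7130 late blastula Pou5f1-Flag intervals, 460 touched the Input and were set aside, and the 6670 others were merged with those of the other ChIP lists at 1 bp of overlap. A locus takes its values from its strongest interval. Shares have exact Clopper-Pearson 95% intervals. No test was run, since each group held 1 sample. Of the accessions beside loci found alone, 95.0% were matched to a RefSeq gene name through a table of another assembly, used for names only; unmatched ones are printed as listed. Genes named at loci were the 20 strongest loci without and the 10 strongest with a 500 to 510 bp interval, the 10 genes with most loci, the 3 strongest per gene list, the 3 loci nearest the rule's bound on each side per list, and loci of several intervals. A locus that this rule names is not reported here. The members and the gene lists were chosen with earlier results of these data known. The merging was tested on simulated intervals. Python 3.11.15, pandas 2.3.3, numpy 2.4.6 and SciPy 1.17.1 were used. Alternatives varied the overlap, the Input filter, the false discovery rate, the passes and the reads.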

Additional observations from a re-analysis of the deposited data

How the results depend on the processing

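Loci found alone numbered 2285 at a false discovery rate of 1% or less, 459 from the first pass alone and 1573 at 40 reads or more, against 4036. Their share of late blastula loci, 66.4%, was 62.7% with gaps of up to 500 bp counted as shared, 72.2% with centres within 100 bp required, 63.6% at the 1% rate, 47.5% in the first pass and 52.9% at 40 reads or more. It was 72.9% with sharing judged by Sox2 alone and 87.4% by 512-cell Pou5f1-Flag alone. The share with a 500 to 510 bp interval, 2.43%, was 4.68% at the 1% rate, 1.09% in the first pass, 6.23% at 40 reads or more and 0 by construction with those intervals left out. Median reads were 47 in loci found alone and 64 in shared loci at the 1% rate, 56 and 65 at 40 reads or more, and 38 and 57 with 512-cell sharing alone; the first pass gave 31 in loci found alone. Of 144 list genes beside loci found alone, 38 were left in the first pass and 76 at 40 reads or more. By list, the 1% rate moved 7 of 15 counts by over 1.5 times, among them Fgf (8 genes, against 13), Wnt (10, against 16) and dorsoventral (6, against 10). The 40 read setting moved 12, among them SoxB1, Pou, Klf and Myc (5, against 13), and the first pass all 15. Fewer intervals entered the 1% rate, first pass and 40 read settings by construction; for the other changes the cause was not tested. The settings for 40 reads, chromosome 4 and each list alone were chosen after seeing the data. No paired analysis was possible because each group held 1 sample, and for the same reason no replicate could be left out. Whether library depth decides which weak loci appear in a further list was not tested.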

Other observations

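Several genes had many loci found alone and no shared late blastula locus. They were picked after their values were seen. Beside her13, a Hes-related gene, and NM_213106 there were 18 within 120.5 kb of chromosome 15 (7124759 to 7245249), with 22 to 65 reads a median of 32, and 4 and 3 Input intervals beside these genes; none was listed in both passes. Beside tenm4, a teneurin gene, and zgc:172282 there were 15 within 468.8 kb of the same chromosome, with 22 to 46 reads and 2 Input intervals. On chromosome 12, ifngr1l had 11 within 42.1 kb, with 21 to 91 reads and 1 Input interval. The IgLON adhesion genes opcml and ntm on chromosome 10 had 16 and 10, with medians of 47.5 and 50.5 reads and 0 Input intervals beside either. Their stretches of 1122 and 927 kb overlap, and a locus between them counts for both. On chromosome 14, 12 loci lay beside cfap96 and the insulin gene insb, within 800.3 kb, with a median of 42.5 reads and 0 Input intervals. On chromosome 12, abca5 and ppp2r2d had 14 each, of which 1 held a 500 to 510 bp interval. The 512-cell loci found alone beside these 2 genes numbered 21 and 16. Sox2 loci found alone were listed beside every gene of this paragraph, and 512-cell ones beside all but tenm4. For opcml they numbered 3 and 8, and for insb 3 and 5.

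Of 170 genes with mir in their name that any list gives, 63 (37.1%) were beside a locus found alone, against 43.0% of all named genes.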
